A study of Mus musculus with 18 samples.

Results

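The T-cell costimulatory and checkpoint ligands are the molecules through which an antigen-presenting cell tells a T cell to go on or to stop. The set followed here was defined by gene name. It held 10 genes of the 21254 in the deposited table (*Cd40*, *Cd80*, *Cd86*, *Cd274*, *Pdcd1lg2*, *Icosl*, *Cd70*, *Cd48*, *Vsir* and *Lgals9*), and all 10 were among the 15811 genes tested. Bulk RNA-seq had been made from 3 populations sorted from mouse lungs 24 h after nebulization of LPS, the endotoxin of Gram-negative bacteria (12.5 mg in 5 ml, given over 15 min). The populations were monocyte-derived macrophages (moMs, sorted as CD45+CD11b+MHC-II-Ly6C+), transitional interstitial macrophages (tnsIMs, which the labels call trIMs, CD45+CD11b+MHC-II+Ly6C+) and mature interstitial macrophages (matIMs, CD45+CD11b+MHC-II+Ly6C-). Each came from Ezr-KOm mice and from WT mice, with 3 libraries in each of the 6 groups. Ezr-KOm mice carry floxed *Ezr*, the gene of the membrane-cytoskeleton linker ezrin, and Cre under the *Cx3cr1* promoter, which is active in monocytes and most macrophages. The WT mice (B6.Cx3cr1tm1.1(cre)Jung/J) carry the same Cre without floxed *Ezr*, so both genotypes share the Cre allele at *Cx3cr1*, and there was no library without LPS. The mice were C57BL/6, 3 to 5 months old, and of both sexes by the study's methods. The study's legends give 3 mice per genotype as biological replicates, and the labels do not say whether the same replicate number in different populations marks the same mouse. By the methods, the populations came from the CD11c-negative fraction, after CD11c+ dendritic cells (CD24high CD64neg) had been set apart. The methods print the matIM gate as Ly6C+MHC-II-, which is the moM gate and differs from the labels. *Ly6c2* averaged 481 CPM (counts scaled to the size of each library) in WT moMs, 219 in WT tnsIMs and 51.2 in WT matIMs, the order of the labels' gates.

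T cells need a signal beside the antigen receptor. CD80 and CD86 give it through CD28 and withdraw it through CTLA-4, ICOS ligand gives it through ICOS, and CD70 through CD27. PD-L1 (*Cd274*) and PD-L2 (*Pdcd1lg2*) restrain T cells through PD-1, and VISTA (*Vsir*) and galectin-9 (*Lgals9*) are counted as inhibitory too, galectin-9 as a ligand of TIM-3. CD48 binds CD2 and the SLAM family receptor CD244. CD40 works the other way round: it is the receptor on the antigen-presenting cell for CD40 ligand on the T cell, and its engagement raises several of the other ligands. Macrophages of inflamed tissue carry many of these molecules, and mature dendritic cells are known for the highest levels of CD80, CD86, CD40 and PD-L2.

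Some of these genes are textbook targets of NF-kappaB and interferon signalling, so the 250 bases before the start of the Ensembl canonical transcript of each member were read on GRCm39 with the start sites of Gencode M39. Both strands were searched for the core of the interferon-stimulated response element (a GAAA repeated after a gap of 2 bases), for the gamma-activated site (TTCNNNGAA) and for the NF-kappaB consensus. The NF-kappaB consensus stood in 3 of the 10 promoters and in 7.62% of the 21770 promoters of protein-coding genes. In *Cd40* it began at position -71 from the start and in *Pdcd1lg2* at -244, at either place readable on both strands, and in *Icosl* it began at -45 on the reverse strand. The interferon-stimulated element stood in 1 of 10, at -41 from the start of *Cd274* on the reverse strand, against 3.32% of all promoters. The gamma-activated site stood in 0 of 10, against 7.70%. With 50 bases after the start included, the NF-kappaB consensus stood in 4 of 10 (*Cd70* added, with 2 matches) against 8.97% of all promoters, and the interferon-stimulated element in 2 of 10 (*Lgals9* added) against 3.84%. The 4 promoters that held a match follow, 5′ to 3′ on the gene's own strand, because 3 of them belong to genes whose levels rose in matIMs below and the other to *Cd274*, the neighbour of *Pdcd1lg2*, which did not pass the test. Capitals mark the match, which is a match of letters and not a measured binding site.
Cd40, chr2:164897294-164897543, plus strand: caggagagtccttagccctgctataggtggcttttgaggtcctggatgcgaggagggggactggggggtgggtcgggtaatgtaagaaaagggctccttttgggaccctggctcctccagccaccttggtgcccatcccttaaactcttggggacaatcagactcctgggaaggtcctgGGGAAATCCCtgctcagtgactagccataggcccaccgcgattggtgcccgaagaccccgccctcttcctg
Pdcd1lg2, chr19:29388069-29388318, plus strand: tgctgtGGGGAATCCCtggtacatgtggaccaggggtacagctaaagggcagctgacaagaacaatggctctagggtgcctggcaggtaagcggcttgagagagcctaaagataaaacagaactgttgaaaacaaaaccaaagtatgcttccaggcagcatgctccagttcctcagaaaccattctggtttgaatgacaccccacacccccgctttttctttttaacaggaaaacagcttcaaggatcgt
Icosl, chr10:77904886-77905135, plus strand: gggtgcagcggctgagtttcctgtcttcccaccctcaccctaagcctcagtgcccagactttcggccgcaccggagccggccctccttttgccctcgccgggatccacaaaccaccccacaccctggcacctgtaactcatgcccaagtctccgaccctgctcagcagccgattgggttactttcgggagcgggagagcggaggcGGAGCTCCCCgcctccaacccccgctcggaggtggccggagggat
Cd274, chr19:29344279-29344528, plus strand: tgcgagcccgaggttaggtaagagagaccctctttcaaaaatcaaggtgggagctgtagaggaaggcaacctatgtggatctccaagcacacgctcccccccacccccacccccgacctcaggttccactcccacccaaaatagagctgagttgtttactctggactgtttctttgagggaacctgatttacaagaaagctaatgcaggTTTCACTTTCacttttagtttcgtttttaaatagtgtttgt

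Rounded total counts ran from 16513000 to 48461000 a library (median 24087000), with the tnsIM Ezr-KOm 2 library the deepest. The targeted gene was lower in every Ezr-KOm library than in any WT library of its population. *Ezr* stood at 503, 593 and 497 CPM in WT moMs and at 282, 160 and 252 in Ezr-KOm moMs, at 679, 515 and 565 against 234, 126 and 213 in tnsIMs, and at 741, 632 and 611 against 167, 93.8 and 144 in matIMs. Its decrease passed the test in tnsIMs (log2 fold change -1.62, edgeR adjusted p = 0.00365) and matIMs (-2.29, adjusted p = 7.73e-05) and missed it in moMs (-1.20, adjusted p = 0.0549). The sorted populations were then set against lists of cell type markers. The 14 macrophage and monocyte markers summed to between 28310 and 34618 CPM in WT moMs, 17042 and 22768 in WT tnsIMs, and 10991 and 12534 in WT matIMs. At an adjusted p under 0.05, 3 of the 14 rose and 8 fell from moMs to matIMs in WT (13.4% and 11.4% of all genes). In Ezr-KOm 3 rose and 9 fell (12.5% and 10.7% of all genes). The 8 markers of mature migratory dendritic cells ran opposite to the macrophage sum, from 52.1–74.2 CPM in WT moMs through 458–737 in tnsIMs to 5950–8738 in matIMs, with none of the 8 at 0. In Ezr-KOm libraries they summed to 57.7–108, 594–806 and 7743–8586 CPM. *Ccr7*, their defining chemokine receptor, averaged 13.4, 108 and 1815 CPM in the 3 WT populations. Of the 7 conventional dendritic cell markers in the table, 6 rose from moMs to matIMs. *Cd209a* averaged 31.6 CPM in WT moMs and 786 CPM in WT matIMs and *Zbtb46* 3.49 and 120 CPM, while *Xcr1* and *Clec9a* averaged 3.76 and 4.05 CPM in WT matIMs. B cell markers summed to 9.79–14.4 CPM in WT moMs and 171–254 in WT matIMs. T and NK cell markers summed to 38.1–51.5 CPM in WT moMs and 40.2–52.5 CPM in WT matIMs. Epithelial markers were highest in tnsIMs, at 1146–2095 CPM in WT against 89.1–134 in WT moMs.

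**Figure D1:**
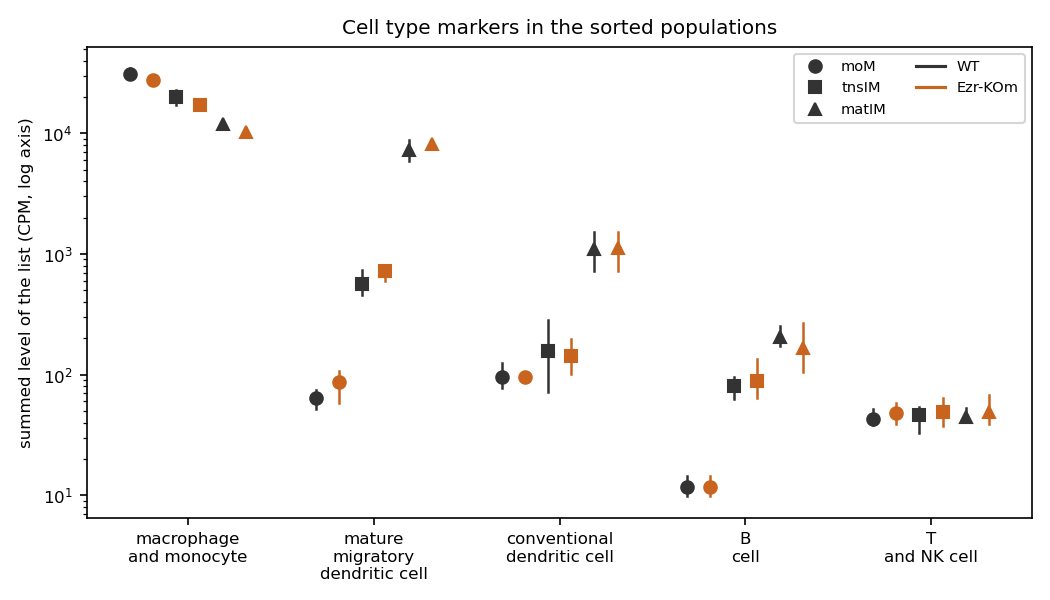
Summed CPM of 5 marker lists (log axis) in the 3 populations (circle, square, triangle) and 2 genotypes (colours), where the symbol is the mean of 3 libraries and the line runs from the lowest to the highest. The mature migratory dendritic cell sum rises from under 108 CPM in moMs to between 5950 and 8738 CPM in matIMs, while the macrophage and monocyte sum falls.

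The first question was how the ligands differ between moMs, tnsIMs and matIMs. The paper proposes that moMs become matIMs by way of tnsIMs. All libraries were taken 24 h after LPS, so a step here is a comparison of sorted populations. Whether cells of a population gave rise to the next was not tested. In WT mice, 6 of the 10 ligands rose and 1 fell from moMs to matIMs at an adjusted p under 0.05, where 13.4% of all genes tested rose and 11.4% fell. The median log2 fold change of the 10 was 0.79, against 0.01 over all genes tested. *Pdcd1lg2* and *Cd70* rose most, *Icosl*, *Cd40*, *Cd80* and *Cd86* rose by less, and *Vsir* fell. In Ezr-KOm mice the same step raised 6 and lowered 2 (12.5% and 10.7% of all genes), with a median of 0.84 against 0.01. *Cd40*, *Cd80*, *Cd86*, *Pdcd1lg2*, *Icosl* and *Cd70* rose and *Vsir* fell in both genotypes. These calls held under every alternative that tested the gene. *Cd70* was not tested under the filter of at least 10 counts in every library. The shorter step from moMs to tnsIMs raised 1 and lowered 2 ligands in WT (13.0% and 8.61% of all genes) and raised 2 and lowered 1 in Ezr-KOm (9.23% and 5.04%). From tnsIMs to matIMs, 7 rose and 0 fell in WT (8.32% and 10.2% of all genes), and 5 rose and 1 fell in Ezr-KOm (8.37% and 9.85%). The macrophage, dendritic cell and B cell sums above moved with the same steps in cells gated as CD11c-negative, and their part in the changes of the ligands was not tested. In bulk samples, fewer cells of a type and less RNA per cell cannot be told apart.

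**Figure D2:**
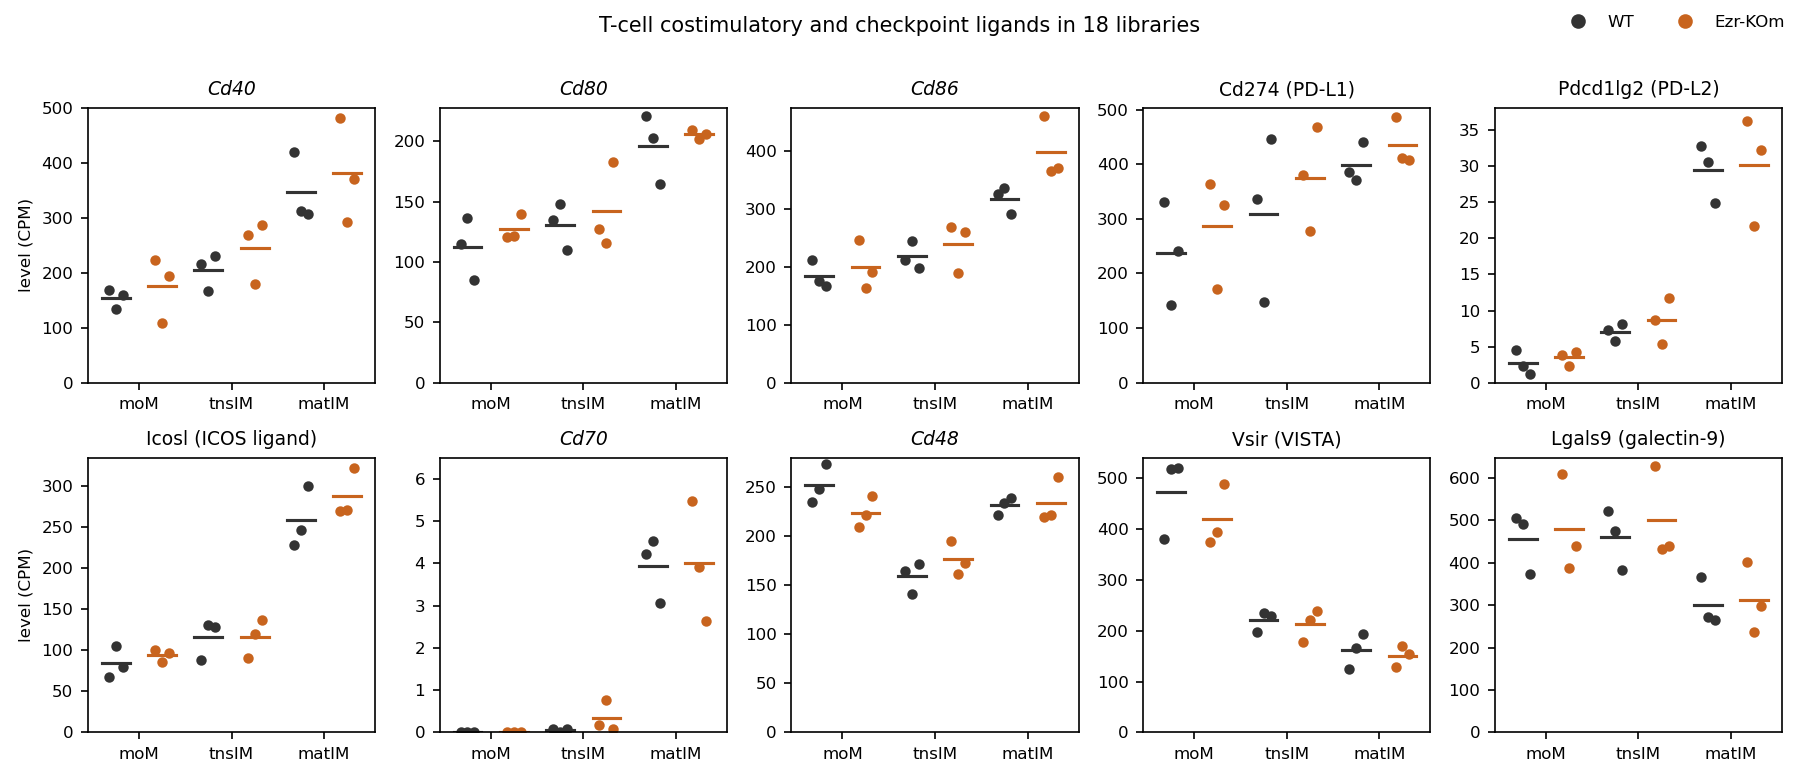
Level of each ligand in CPM (linear axis from 0) in each of the 18 libraries, by population and genotype, where points are libraries and bars are means of 3. *Pdcd1lg2*, *Icosl* and *Cd70* have their high points in matIMs, *Vsir* has its high points in moMs, and WT and Ezr-KOm points overlap within a population for each ligand except *Cd86* in matIMs and *Cd70* in tnsIMs. The share of all genes whose WT and Ezr-KOm points do not overlap was not counted.

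**Figure D3:**
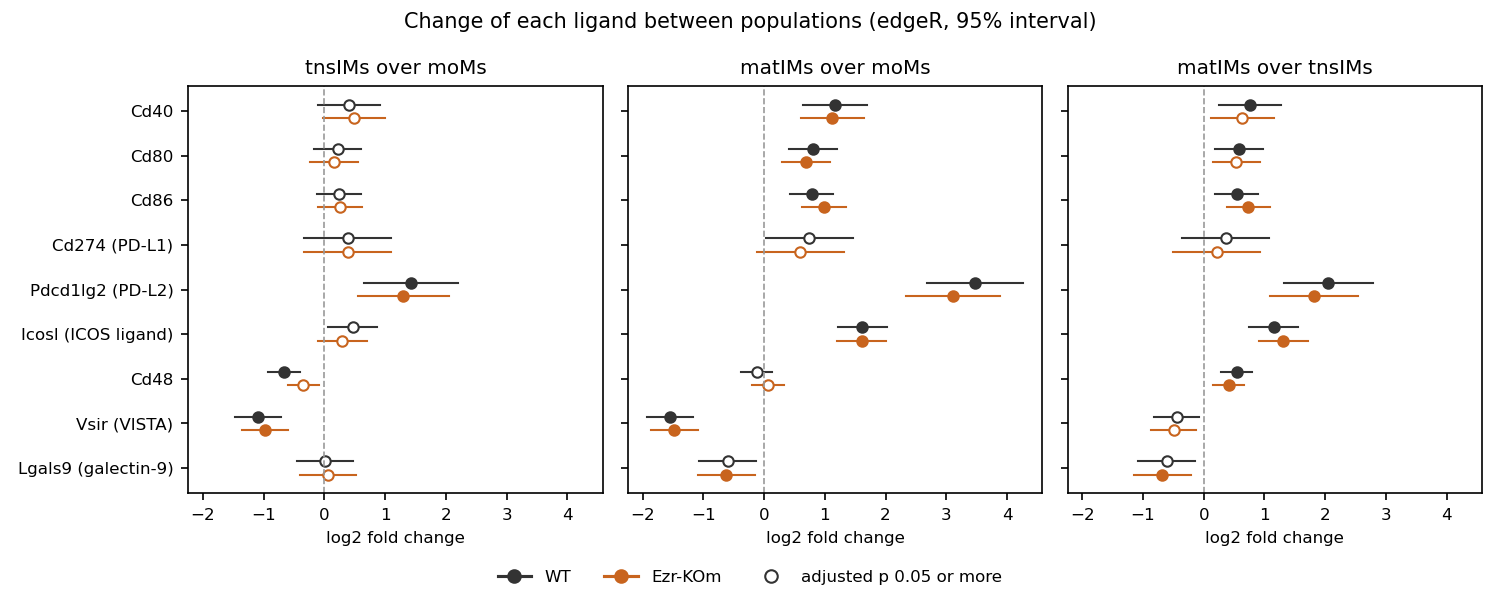
Log2 fold change between populations within WT and within Ezr-KOm, with the 95% interval of the edgeR model, for 9 ligands (*Cd70* is left out because its moM libraries hold no count). Filled points have an adjusted p under 0.05. The intervals of WT and Ezr-KOm overlap for each ligand, and *Pdcd1lg2* has the largest rise of the 9 from moMs to matIMs (3.47 in WT).

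The ligands that stimulate through CD28 and ICOS came first. *Cd80* (ENSMUSG00000075122, chr16:38275923-38316697 on GRCm39) and *Cd86* (ENSMUSG00000022901, chr16:36424231-36486443) lie 1789 kb apart and both bind CD28 and CTLA-4. *Cd86* stood at 212, 176 and 166 CPM in the WT moM libraries, 211, 245 and 198 in WT tnsIMs and 326, 336 and 291 in WT matIMs. The matIM libraries lay above all others of their genotype, while moMs and tnsIMs overlapped. In Ezr-KOm mice *Cd86* stood at 246, 163 and 192 CPM in moMs, 269, 189 and 260 in tnsIMs and 460, 366 and 371 in matIMs, in the same order and with the same overlap. Its log2 fold change from moMs to matIMs was 0.78 in WT (SE 0.171, adjusted p = 0.00209) and 0.99 in Ezr-KOm (SE 0.172, adjusted p = 0.000280). The step from tnsIMs to matIMs also passed, at 0.54 in WT (adjusted p = 0.0316) and 0.74 in Ezr-KOm (adjusted p = 0.00437), but the WT call was lost in 11 of 18 fits that each left out 1 library (adjusted p up to 0.163). The Ezr-KOm call was lost without the matIM Ezr-KOm 1 library (0.58, adjusted p = 0.0513).

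*Cd80* was lower than *Cd86* in CPM and rose from moMs to matIMs in both genotypes. Its levels were 115, 137 and 85.4 CPM in WT moMs, 135, 148 and 110 in WT tnsIMs and 221, 203 and 165 in WT matIMs, again with matIMs apart and the other populations overlapping. In Ezr-KOm it stood at 121, 121 and 140 CPM in moMs, 128, 115 and 183 in tnsIMs and 210, 202 and 206 in matIMs. From moMs to matIMs it rose by 0.80 on the log2 scale in WT (SE 0.187, adjusted p = 0.00338) and by 0.69 in Ezr-KOm (SE 0.187, adjusted p = 0.0102). From tnsIMs to matIMs the change was 0.58 in WT (adjusted p = 0.0339, lost in 11 of 18 fits without 1 library, adjusted p up to 0.179) and 0.54 in Ezr-KOm (adjusted p = 0.0534, and 0.0456 when same-numbered libraries were paired in a replicate block). The Ezr-KOm change passed without the tnsIM Ezr-KOm 3 library (0.70, adjusted p = 0.0175), and in 6 of 27 alternatives in all. Among these were DESeq2 (adjusted p = 0.0406) and edgeR on library totals (adjusted p = 0.0245). Exons of opposite-strand genes overlap 8.38% of the exon bases of *Cd80*, and reads from either strand could not be told apart there, because the kit does not mark strand.

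*Icosl* (ENSMUSG00000000732, chr10:77905136-77919747), the ligand of ICOS on activated and follicular helper T cells, moved further. It stood at 68.0, 105 and 79.1 CPM in WT moMs, 88.1, 131 and 129 in WT tnsIMs and 228, 247 and 300 in WT matIMs. Each matIM library lay above each tnsIM and moM library. In Ezr-KOm the levels were 101, 85.9 and 96.3 CPM in moMs, 90.8, 120 and 137 in tnsIMs and 269, 271 and 322 in matIMs. The rise from moMs to matIMs was 3.07-fold in WT (95% interval 2.31 to 4.08, adjusted p = 5.06e-06) and 3.05-fold in Ezr-KOm (2.30 to 4.04, adjusted p = 5.69e-06). It also rose between tnsIMs and matIMs (log2 1.15 in WT and 1.31 in Ezr-KOm, adjusted p = 0.000242 and 7.34e-05). From moMs to tnsIMs *Icosl* missed the threshold (0.47 in WT, adjusted p = 0.0908, and 0.30 in Ezr-KOm, adjusted p = 0.345). With the replicate block the WT change passed (0.46, adjusted p = 0.0323), as it did without the moM WT 2 library (0.66, adjusted p = 0.0262) or the tnsIM WT 1 library (0.61, adjusted p = 0.0315).

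*Cd40* (ENSMUSG00000017652, chr2:164897547-164914868), the receptor through which T cells license antigen-presenting cells, stood at 169, 135 and 160 CPM in WT moMs, 216, 168 and 231 in WT tnsIMs and 420, 313 and 307.5 in WT matIMs. The Ezr-KOm libraries held 224, 108 and 195 CPM in moMs, 269, 181 and 288 in tnsIMs and 482, 292 and 371 in matIMs. Within either genotype the matIM libraries lay above the others, and moMs and tnsIMs overlapped. From moMs to matIMs *Cd40* rose 2.25-fold in WT (1.57 to 3.22, adjusted p = 0.00166) and 2.17-fold in Ezr-KOm (1.52 to 3.12, adjusted p = 0.00237). The change from tnsIMs to matIMs passed in WT (log2 0.76, adjusted p = 0.0368) and missed in Ezr-KOm (0.64, adjusted p = 0.0854, and 0.00393 with the replicate block). The Ezr-KOm change passed without the matIM Ezr-KOm 2 library (0.80, adjusted p = 0.0495). The WT call was lost in 13 of 18 fits that each left out 1 library, at adjusted p up to 0.195. From moMs to tnsIMs the log2 fold change of *Cd40* was 0.41 in WT (adjusted p = 0.254) and 0.48 in Ezr-KOm (adjusted p = 0.217). With the replicate block it passed in Ezr-KOm only (0.51, adjusted p = 0.0202). With a block by replicate number within genotype it passed in WT (0.41, adjusted p = 0.0268) and in Ezr-KOm (0.52, adjusted p = 0.00835).

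*Cd70* (ENSMUSG00000019489, chr17:57452997-57456777), the ligand of CD27 and normally limited to recently activated lymphocytes and dendritic cells, had most of its counts in the matIM libraries. It had 0 counts in each of the 6 moM libraries. WT tnsIMs held 2, 0 and 2 counts and Ezr-KOm tnsIMs 4, 39 and 2, whereas WT matIMs held 95, 106 and 82 and Ezr-KOm matIMs 153, 114 and 63. In CPM the matIM libraries ran from 3.06 to 4.53 in WT and from 2.64 to 5.49 in Ezr-KOm, so the gene was low even where it was present. Against a floor of 3 counts over the moM group, the matIM level was at least 86.9-fold higher in WT and at least 97.5-fold higher in Ezr-KOm (adjusted p = 2.05e-05 and 1.77e-05). The ratio of matIMs to tnsIMs was 63.4 in WT (95% interval 24.5 to 234, counting error only) and 8.87 in Ezr-KOm (6.48 to 12.4). The 39 counts of the tnsIM Ezr-KOm 2 library, the deepest of the 18, carried most of the Ezr-KOm tnsIM level. Scaled for depth, that library held 0.778 CPM, against 0.166 in tnsIM Ezr-KOm 1 and 0.0848 in tnsIM Ezr-KOm 3. Ezr-KOm tnsIMs were above moMs by at least 11.0-fold (adjusted p = 0.00605). Without that library 6 counts were left, which is at least 3.01-fold above moMs (adjusted p = 0.0361), and the ratio of matIMs to tnsIMs was 32.4 (14.7 to 89.0).

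The pair of PD-1 ligands are neighbours on chromosome 19, 22.8 kb apart, and they differed in these cells. *Cd274* (ENSMUSG00000016496, chr19:29344855-29365495), the gene of PD-L1, was high in every population, at 331, 142 and 241 CPM in WT moMs, 336, 148 and 446 in WT tnsIMs and 386, 370.5 and 440 in WT matIMs. Replicate 2 was the lowest library of WT moMs, WT tnsIMs and WT matIMs. In Ezr-KOm it stood at 364, 172 and 326 CPM in moMs, 380.1, 278 and 467 in tnsIMs and 486, 411 and 408 in matIMs. The matIM libraries lay above the moM libraries in both genotypes, but no change of *Cd274* between populations passed in the model without a block. Its fold change from moMs to matIMs was 1.68 in WT (95% interval 1.02 to 2.77, adjusted p = 0.128) and 1.51 in Ezr-KOm (0.920 to 2.49, adjusted p = 0.243). With the replicate number as block, this change passed in both genotypes (adjusted p = 0.0107 and 0.0325). Exons of opposite-strand genes overlap 19.6% of its exon bases.

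*Pdcd1lg2* (ENSMUSG00000016498, chr19:29388319-29448561), the gene of PD-L2, was low in moMs and rose at both steps. It stood at 4.498, 2.36 and 1.26 CPM in WT moMs, 7.26, 5.77 and 8.19 in WT tnsIMs and 32.9, 30.6 and 24.9 in WT matIMs, with no overlap between any of the 3 populations. The Ezr-KOm libraries held 3.87, 2.31 and 4.27 CPM in moMs, 8.73, 5.43 and 11.7 in tnsIMs and 36.4, 21.7 and 32.3 in matIMs, also without overlap. The rise from moMs to matIMs was 11.1-fold in WT (6.40 to 19.3, adjusted p = 1.56e-06) and 8.66-fold in Ezr-KOm (5.07 to 14.8, adjusted p = 4.39e-06). From moMs to tnsIMs it was 2.68-fold (adjusted p = 0.00957) and 2.46-fold (adjusted p = 0.0182), and from tnsIMs to matIMs 4.15-fold (adjusted p = 0.000302) and 3.51-fold (adjusted p = 0.000840). The WT call of the first step was lost without the moM WT 3 library (log2 1.07, adjusted p = 0.0551). That of Ezr-KOm was lost without moM Ezr-KOm 2 (1.08, adjusted p = 0.0864) or tnsIM Ezr-KOm 3 (1.05, adjusted p = 0.0686). Per kilobase of exon, the ratio of PD-L1 to PD-L2 went from a median of 41.2 in WT moMs (33.5 to 107) to 25.9 in WT tnsIMs (14.3 to 30.5) and 6.76 in WT matIMs (6.57 to 9.88). The Ezr-KOm medians were 42.7, 24.4 and 7.48. PD-L1 transcripts exceeded PD-L2 transcripts in all 18 libraries.

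**Figure D4:**
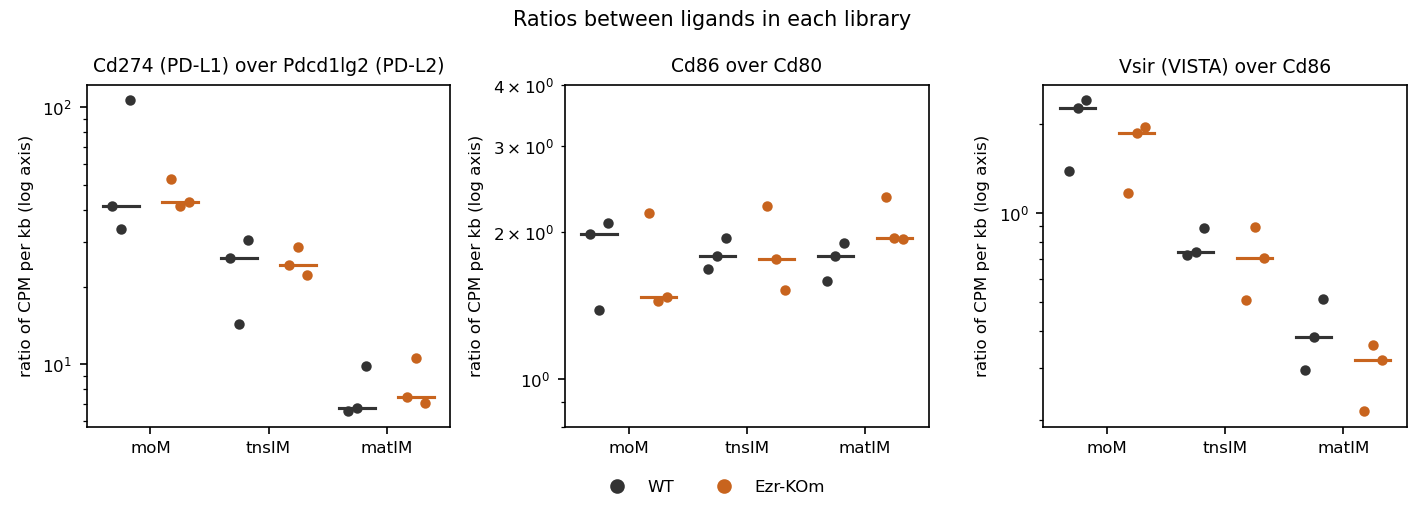
Ratios of CPM per kilobase of exon between 3 pairs of ligands (log axes) in each library, where bars are medians of 3. The PD-L1 to PD-L2 ratio has a median of 41.2 in WT moMs and 6.76 in WT matIMs, the CD86 to CD80 ratio stays between 1.38 and 2.35 in the 18 libraries, and the VISTA to CD86 ratio crosses 1 between moMs and tnsIMs.

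*Vsir* (ENSMUSG00000020101, chr10:60182630-60208463) encodes VISTA, an inhibitory B7-like protein that is typical of monocytes and other myeloid cells. It stood at 382, 518 and 521 CPM in WT moMs, 198.5, 235 and 229.9 in WT tnsIMs and 125, 166 and 194.5 in WT matIMs. No library of tnsIMs or matIMs reached the lowest moM library, and the matIM libraries lay under the tnsIM libraries. The Ezr-KOm levels were 374, 395 and 488 CPM in moMs, 178, 221 and 239 in tnsIMs and 128, 170.2 and 154 in matIMs. From moMs to tnsIMs *Vsir* fell by 1.10 on the log2 scale in WT (SE 0.181, adjusted p = 0.000268) and by 0.98 in Ezr-KOm (adjusted p = 0.00111), and from moMs to matIMs by 1.55 and 1.48 (adjusted p = 4.23e-06 and 7.48e-06). The further change from tnsIMs to matIMs was -0.45 in WT (adjusted p = 0.0979) and -0.50 in Ezr-KOm (adjusted p = 0.0634). Both passed under the replicate block (adjusted p = 0.00401 and 0.00257), with DESeq2 (0.0474 and 0.0348) and with upper-quartile scaling (0.0383 and 0.0291). The change passed in 6 of 27 alternatives in WT and 17 of 27 in Ezr-KOm. Among these were 2 of the 18 fits without 1 library in WT and 12 of 18 in Ezr-KOm. Per kilobase of exon, VISTA stood at a median of 2.26 times CD86 in WT moMs, 0.735 times in WT tnsIMs and 0.380 times in WT matIMs. The Ezr-KOm medians were 1.86, 0.706 and 0.318.

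*Lgals9* (ENSMUSG00000001123, chr11:78853800-78875772), the gene of galectin-9, had higher means in moMs and tnsIMs than in matIMs, with changes close to the threshold. Its levels were 506, 491 and 373 CPM in WT moMs, 523, 475 and 383 in WT tnsIMs and 365, 272 and 266 in WT matIMs. In Ezr-KOm they were 611, 389 and 439 CPM in moMs, 628, 432 and 440.1 in tnsIMs and 402, 236 and 297 in matIMs, where the highest matIM library overlapped the moM range. Between moMs and tnsIMs the log2 fold change was 0.01 in WT (95% interval -0.45 to 0.47) and 0.06 in Ezr-KOm (-0.40 to 0.52). From moMs to matIMs it was -0.60 in WT (adjusted p = 0.0549, and 0.00180 with the replicate block) and -0.62 in Ezr-KOm (adjusted p = 0.0497). Between tnsIMs and matIMs it was -0.61 in WT (adjusted p = 0.0627, and 0.00212 with the replicate block) and -0.68 in Ezr-KOm (adjusted p = 0.0378). Single libraries and the settings of the analysis moved these values across the threshold. From moMs to matIMs the change passed in 9 of 27 alternatives in WT and 7 of 27 in Ezr-KOm. From tnsIMs to matIMs it passed in 9 of 27 in WT and 22 of 27 in Ezr-KOm. Both WT changes passed with DESeq2 (adjusted p = 0.0420 and 0.0374). With upper-quartile scaling the Ezr-KOm call against moMs was lost (edgeR adjusted p = 0.106). The Ezr-KOm call against moMs was lost in 15 of 18 fits without 1 library (adjusted p up to 0.303), while each WT change passed in 5 of 18. The Ezr-KOm call against tnsIMs was lost without tnsIM Ezr-KOm 1 (-0.49, adjusted p = 0.212), matIM Ezr-KOm 2 (-0.51, adjusted p = 0.185) or matIM Ezr-KOm 3 (-0.68, adjusted p = 0.117).

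*Cd48* (ENSMUSG00000015355, chr1:171509577-171532826), which encodes a GPI-anchored ligand of CD2 and CD244, dipped in tnsIMs. It stood at 234, 248 and 273 CPM in WT moMs, 164, 141 and 171 in WT tnsIMs and 222, 233 and 238 in WT matIMs. The WT tnsIM libraries lay under both other populations, which overlapped each other. In Ezr-KOm the levels were 209, 221 and 240.5 CPM in moMs, 194, 161 and 172.5 in tnsIMs and 219.6, 221 and 259.6 in matIMs, and again the tnsIM libraries lay lowest. *Cd48* fell by 0.66 from moMs to tnsIMs in WT (SE 0.124, adjusted p = 0.000786), while in Ezr-KOm the change was -0.34 (adjusted p = 0.0722, and 0.0281 with the replicate block). The Ezr-KOm change passed without the tnsIM Ezr-KOm 1 library (-0.43, adjusted p = 0.0485). From tnsIMs to matIMs it rose by 0.54 in WT (adjusted p = 0.00399) and by 0.41 in Ezr-KOm (adjusted p = 0.0257). The Ezr-KOm call was lost in 14 of 18 fits without 1 library (adjusted p up to 0.216). Between moMs and matIMs its log2 fold change was -0.12 in WT (95% interval -0.38 to 0.14) and 0.06 in Ezr-KOm (-0.20 to 0.32). The epithelial sum and the endothelial sum (378 CPM in WT tnsIMs, 87.1 in WT moMs and 48.3 in WT matIMs) were both highest in tnsIMs, opposite to *Cd48*, and their part in the change was not tested.

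Levels of different genes were compared per kilobase of exon. In WT moMs galectin-9 (201 ± 31.9 CPM per kb, SD, n = 3) and CD48 (174 ± 13.6) led and overlapped, and VISTA followed at 94.5 ± 15.9, apart from CD48. PD-L1 (58.3 ± 23.3) overlapped VISTA, and CD86 (48.0 ± 6.21) and CD40 (45.3 ± 5.21) overlapped PD-L1 and each other. CD80 (27.2 ± 6.21) and ICOS ligand (18.2 ± 4.11) lay below these and overlapped each other, and PD-L2 came last of the detected ligands at 1.19 ± 0.721. In WT matIMs the order was CD48 (160.1 ± 5.99), galectin-9 (133 ± 24.6), CD40 (102 ± 18.6) and PD-L1 (97.8 ± 8.99), each overlapping the next. CD86 (82.6 ± 6.20) stood apart under PD-L1, then ICOS ligand (55.9 ± 8.10) and CD80 (47.5 ± 6.96), which overlapped. VISTA had moved to eighth place (32.3 ± 6.95), above PD-L2 (12.9 ± 1.79) and CD70 (4.67 ± 0.921). With the length of the longest transcript in place of all exons, galectin-9 came first and CD48 second in WT matIMs too, and CD86 moved above PD-L1 (117 against 101 CPM per kb in WT matIMs and 67.7 against 60.2 in WT moMs). The place of CD86 thus depended on the length used.

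The second question was whether loss of *Ezr* in monocytes and macrophages changes the ligands. None of the 10 passed an adjusted p under 0.05 in any population with edgeR, and none did with DESeq2, where 0.171%, 0.164% and 0.152% of all genes tested passed with edgeR in moMs, tnsIMs and matIMs. When the libraries were paired by replicate number, a block that raised the counts, 42 genes of the table passed in moMs and 38 in matIMs in place of 27 and 24, and the count among the ligands stayed at 0. Without adjustment, p was under 0.05 for 1 ligand in tnsIMs and for 0 in moMs and 0 in matIMs. The study's methods set a rule of a log2 fold change beyond 0.75 either way together with an unadjusted p under 0.05, and 0, 1 and 0 of the 10 met it in the same order of populations as above, against 2.51%, 1.83% and 2.40% of all genes. The 1 was *Cd70* in tnsIMs. It rested on the 39 counts of the tnsIM Ezr-KOm 2 library. The ratio of Ezr-KOm to WT tnsIMs was 7.51 (95% interval 2.74 to 28.7, counting error only) with that library and 2.05 (0.487 to 9.90) without it. In matIMs, where *Cd70* had more counts, the ratio was 1.05 (0.894 to 1.24, counting error only). The edgeR model, which also covers the spread between libraries, gave a fold change of 1.02 there (95% interval 0.462 to 2.27).

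*Cd86* was the nearest to a difference in matIMs, where each Ezr-KOm library (460, 366 and 371 CPM) lay above each WT library (326, 336 and 291 CPM). How many of all genes separate the genotypes in this way was not counted, so the separation by itself is no evidence of a difference. The model gave the following values for *Cd86*. Its log2 fold change there was 0.33 (95% interval -0.03 to 0.69, unadjusted p = 0.0698, adjusted p = 1), against 0.12 (-0.24 to 0.48) in moMs and 0.13 (-0.22 to 0.49) in tnsIMs. For *Cd274* the log2 fold changes were 0.27 (-0.44 to 0.99), 0.28 (-0.44 to 0.99) and 0.12 (-0.59 to 0.84) in moMs, tnsIMs and matIMs. For *Pdcd1lg2* they were 0.39 (-0.40 to 1.18), 0.27 (-0.45 to 0.99) and 0.03 (-0.66 to 0.72). The narrowest intervals were those of *Cd48*, at -0.17 (-0.43 to 0.09), 0.15 (-0.11 to 0.41) and 0.01 (-0.24 to 0.27). *Cd40* lay at 0.19 (-0.33 to 0.70), 0.26 (-0.25 to 0.78) and 0.14 (-0.38 to 0.65), and *Icosl* at 0.17 (-0.23 to 0.57), -0.0016 (-0.40 to 0.40) and 0.15 (-0.24 to 0.55). *Vsir* lay at -0.18 (-0.55 to 0.20), -0.06 (-0.43 to 0.32) and -0.11 (-0.48 to 0.27). *Cd80* and *Lgals9* lay between 0.05 and 0.18 in the 3 populations, with intervals from -0.41 to 0.58.

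**Figure D5:**
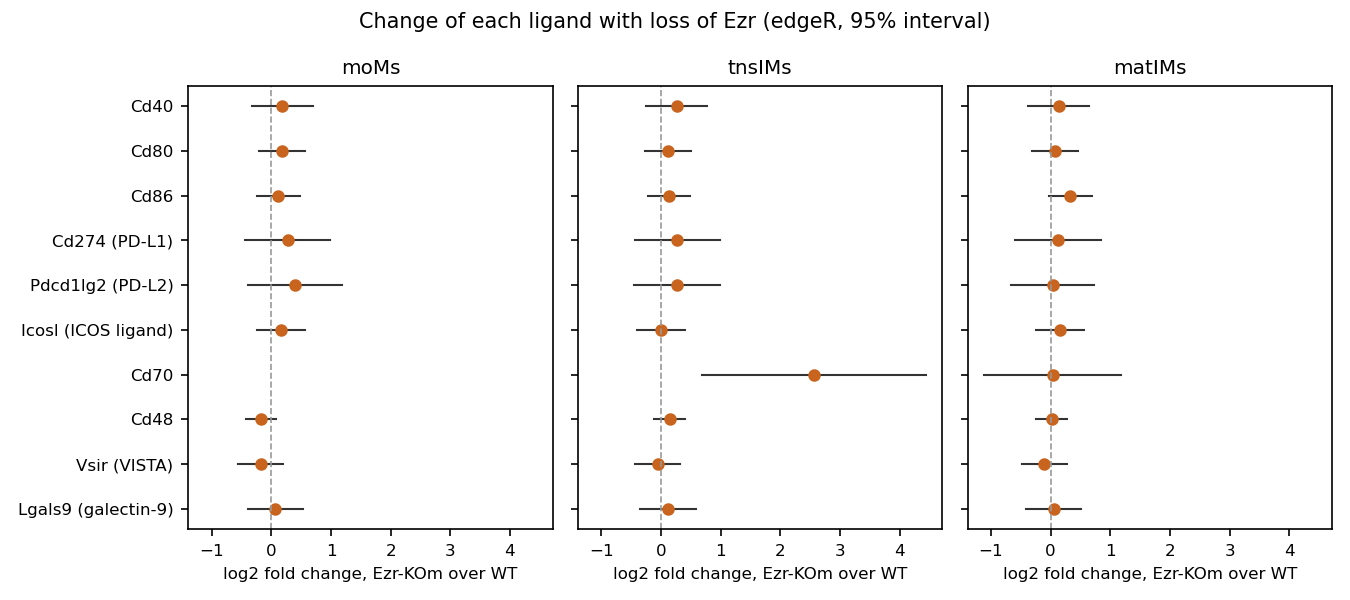
Log2 fold change of each ligand in Ezr-KOm over WT within moMs, tnsIMs and matIMs, with the 95% interval of the edgeR model (*Cd70* in moMs has no count and no point). The intervals include 0 for each ligand and population shown except *Cd70* in tnsIMs, whose point rests on 1 library.

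The difference of the genotype effects between populations was tested directly. No ligand and 0% of all genes tested passed for tnsIMs against moMs (0), for matIMs against moMs (0) or for matIMs against tnsIMs (0), with edgeR and with DESeq2. At an unadjusted p under 0.05 these interactions held 233, 268 and 183 genes of the table, and 0, 0 and 1 of the ligands. The 1 was again *Cd70*.

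Genes that act with the ligands were read from lists of their families and pathways. Of 18 receptors that T cells use for these and related ligands, 11 rose and 1 fell from moMs to matIMs in WT, where 13.4% and 11.4% of all genes did, and 11 rose and 1 fell in Ezr-KOm (12.5% and 10.7% of all genes). The same shares are the background of the lists that follow. *Tnfrsf9* (4-1BB) rose from 2.19 to 65.6 CPM in WT (log2 4.91, adjusted p = 2.90e-08) and *Tnfrsf4* (OX40) from 0.699 to 16.0 CPM (4.52, adjusted p = 1.32e-07). *Cd244a*, the SLAM family receptor of CD48, fell from 292 to 152 CPM (adjusted p = 0.0183). From tnsIMs to matIMs in WT *Btla* rose from 6.27 to 46.4 CPM (adjusted p = 2.68e-06) and *Lag3* from 0.363 to 3.22 CPM (adjusted p = 0.000526). The T and NK cell sums given above overlapped between moMs and matIMs, and their part in these values was not tested.

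Of 26 further costimulatory and checkpoint ligands tested, 8 rose and 7 fell from moMs to matIMs in WT, and 9 rose and 7 fell in Ezr-KOm. *Tnfsf4*, the ligand of OX40, rose from 0.418 to 5.67 CPM in WT (log2 3.80, adjusted p = 2.41e-05), and *Slamf1* from 1.05 to 7.22 CPM (adjusted p = 0.000170). *Tnfsf14* (LIGHT) fell from 38.4 to 7.23 CPM (adjusted p = 9.73e-06) and *Ceacam1*, a ligand of TIM-3, from 271 to 70.7 CPM (adjusted p = 9.10e-05). Of the 7 genes of MHC class II, 7 rose from moMs to matIMs in both genotypes. The populations had been sorted on MHC-II protein.

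Of 15 genes of CD40 signalling, which runs through TRAF adaptors to the 2 arms of NF-kappaB, 7 rose and 1 fell from moMs to matIMs in either genotype. *Relb*, a subunit of the noncanonical arm, rose from 103 to 283 CPM in WT (log2 1.46, adjusted p = 2.67e-07) and *Birc2* from 38.8 to 113 CPM (1.54, adjusted p = 3.72e-05). *Map3k14*, the kinase NIK of that arm, rose from 50.3 to 126 CPM between tnsIMs and matIMs (adjusted p = 2.74e-05), and *Birc3* fell from 414 to 255 CPM between moMs and matIMs (adjusted p = 0.000435). Of 10 genes on the interferon-gamma route to PD-L1, 1 rose and 3 fell in WT and 1 rose and 1 fell in Ezr-KOm. *Jak2* rose from 219 to 502 CPM in WT (adjusted p = 0.000404), and *Ifngr1*, a chain of the receptor, fell from 731 to 407 CPM (adjusted p = 0.00527). Of 8 genes of the surface turnover of PD-L1 and CD86, 1 rose and 2 fell in either genotype. The ubiquitin ligase gene *Marchf1*, whose product removes CD86 and MHC-II from the surface, fell from 99.6 to 64.2 CPM in WT (adjusted p = 0.00418), and *Hip1r*, whose product sends PD-L1 to the lysosome, rose from 2.51 to 8.02 CPM (adjusted p = 0.000610). In Ezr-KOm against WT, 0 genes of these 6 lists passed an adjusted p under 0.05 in any population, and by the rule of the study's methods 3, 1 and 2 did in moMs, tnsIMs and matIMs, where 2.51%, 1.83% and 2.40% of all genes did.

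For each ligand the genes whose level followed it most closely over the 18 libraries were named by Pearson's r of log2 CPM. The libraries share 3 populations that stand apart, so these values mostly describe the order of the populations. *Pdcd1lg2* was closest to *Serpinb6b* (r = 0.98), *Gpr171* (0.97) and *Stk39* (0.97), and *Cd40* to *Gpr171* (0.94), *Irf4* (0.94) and *Klrk1* (0.94). *Icosl* was closest to *Cd209c*, *Nectin1* and *Gpr183* (0.97 each), and *Cd70* to the immunoglobulin segment *Ighv1-22*, *Tbc1d4* and *Plekha5* (0.98 each). *Cd80* and *Cd86* shared *Pfkp* as their closest gene (0.91 and 0.97), and *Ildr1*, among the 3 closest to *Cd86* (0.95), lies 27.9 kb from it. *Vsir* was closest to *Rab31*, *Zcchc24* and *Pygl* (0.98 each), *Lgals9* to *Morrbid* (0.94), *Npc2* and *Hes1* (0.93 each), and *Cd48* to *Rnase6* (0.92), *Mta3* and *Gyg* (0.91 each). The genes closest to *Cd274* were *Gm37248* (0.91), *Gm37787* (0.88) and *Malt1* (0.86).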

How the data were processed

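The 18 libraries were amplified with a full-length, low-input kit that does not mark strand and were sequenced as read pairs. Per the labels, RNA had an integrity number of at least 8. The authors aligned the reads with STAR (2.7.9a in the submitters' processing notes) to GRCm39, annotated with Gencode M29 by the study's methods, and deposited whole-number counts per gene without normalization. Which of STAR's strand columns was kept is not given in the sources used here. Every column was matched to a sample by name. As in the study's methods, edgeR was used (version 4.0.16, R 4.3.3), on the deposited counts. filterByExpr with a smallest count of 10 left 15811 genes, which were scaled by TMM (factors 0.931 to 1.07), and fitted with 1 quasi-likelihood model of the 6 groups. P-values were adjusted over all genes tested by Benjamini-Hochberg, and a gene was called at an adjusted p under 0.05. CPM are on the TMM scale, and totals of 16513000 to 48461000 counts a library set the counting error, which is the only error that the count intervals cover. *Cd70* was given as counts, with a floor of 3 counts over a group where a group held none. Exon lengths and promoters came from Gencode M39 on the same build. The M39 start of *Cd274* lies before the start in the deposited table.

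The members and the lists were chosen with earlier results of these data known. All 10 members are named in each comparison. From the other lists, up to 2 called genes with the largest change in each direction are named per comparison where space allowed, with genes that a result needed, and for each member the 3 genes with the highest Pearson's r (prior count 2). Marker lists also covered plasma cells, plasmacytoid dendritic cells, neutrophils, alveolar macrophages and endothelial cells. In WT moMs, tnsIMs and matIMs their mean sums were 138, 173 and 479 CPM (plasma cells), 2.32, 2.45 and 5.04 (plasmacytoid), 78.3, 247 and 201 (neutrophils), 5947, 1313 and 523 (alveolar macrophages), and 87.1, 378 and 48.3 (endothelial). Of the 6 alveolar macrophage markers 5 rose and 1, *Chil3*, fell from moMs to matIMs in both genotypes, so the fall of their sum is that of *Chil3*.

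Replicates of a group differed beyond sampling noise and none were identical. Replicate numbers were checked by the correlation of the libraries' deviations from their group means. It was above 0.1 in 9 of 9 same-numbered pairs of WT and Ezr-KOm libraries (0.102 to 0.316) and in each pair of moMs with tnsIMs and of tnsIMs with matIMs (lowest 0.169). Different numbers gave at most 0.0508. Deviations from a group mean cancel within the group, so positive same-numbered pairs by themselves push the other pairs down. The block is therefore given beside those results. Between moMs and matIMs 1 of 3 pairs in each genotype fell under 0.1. The alternatives were DESeq2 1.42.0, upper-quartile scaling, library totals, no filter, at least 10 counts in every library, robust estimation, only the groups compared, the replicate block, a block by replicate number within genotype, and each library left out. The code was tested on simulated data.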

Additional observations from a re-analysis of the deposited data

Results flagged for a closer look

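The estimated genotype effects on *Cd48* differed in sign between moMs and tnsIMs. The log2 fold change was -0.17 in moMs (edgeR interval -0.43 to 0.09) and 0.15 in tnsIMs (-0.11 to 0.41). Both intervals include no change, so a difference in direction was not established. In moMs each of the 3 same-numbered pairs was lower in Ezr-KOm (209 against 234, 221 against 248 and 240.5 against 273 CPM), and in tnsIMs each was higher (194 against 164, 161 against 141 and 172.5 against 171 CPM). *Cd48* was flagged for this pattern of pairs, and the share of all genes that show such a pattern was not counted. The difference of the log2 fold changes was 0.32, and the edgeR interaction test gave an unadjusted p = 0.0840 and an adjusted p = 1. In the 18 fits that each left out 1 library it ran from 0.23 to 0.40.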

How the results depend on the processing

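The limits of these data are 3 libraries a group, markers of dendritic and B cells that moved with the populations, counts without strand and low counts of *Cd70*. Of the calls from moMs to matIMs, 7 of 7 in WT and 7 of 8 in Ezr-KOm held under every alternative that tested the gene, the exception being *Lgals9*. Between tnsIMs and matIMs 4 of 7 and 3 of 6 did, and between moMs and tnsIMs 2 of 3 and 2 of 3. The cause of the changes below was not tested. Counts of genes called in Ezr-KOm against WT were 55 in moMs, 55 in tnsIMs and 52 in matIMs with DESeq2, and the replicate block gave 42 in moMs and 38 in matIMs. With only the groups compared, tnsIMs gave 7, and with at least 10 counts in every library, matIMs gave 13. Without 1 library the counts ran from 18 to 32 in moMs, 13 to 26 in tnsIMs and 15 to 26 in matIMs. The ligand count stayed at 0 in each of these. Between populations, ligands called from moMs to tnsIMs numbered 5 in WT with the block within genotype. In Ezr-KOm they numbered 5 with the replicate block and 5 with that within genotype (2 to 4 without 1 library in either genotype). Of tnsIMs against matIMs in WT they numbered 3 with at least 10 counts in every library and 4 to 7 without 1 library, and in Ezr-KOm 4 to 7. With that filter, genes called numbered 1760 from tnsIMs to matIMs in WT, 1837 in Ezr-KOm and 1439 from moMs to tnsIMs in Ezr-KOm. For the last of these, the block within genotype gave 3403 and leaving out 1 library 1410 to 2428. Between moMs and matIMs 1 of 3 pairs fell under a correlation of 0.1 in either genotype. With the replicate block *Cd274* passed in WT (0.83, edgeR adjusted p = 0.0107) and Ezr-KOm (0.69, adjusted p = 0.0325), as did *Lgals9* in WT (-0.61, adjusted p = 0.00180).

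Some log2 fold changes near 0 changed sign. In Ezr-KOm against WT these were *Icosl* in tnsIMs (0.011 on library totals, 0.0015 without a filter, 0.010 with only the groups compared) and *Pdcd1lg2* in matIMs with the replicate block (-0.015). Without 1 library, the ranges in moMs were -0.043 to 0.45 for *Cd40*, -0.073 to 0.25 for *Cd86* and -0.16 to 0.21 for *Lgals9*. In tnsIMs they were -0.072 to 0.25 for *Cd80*, -0.057 to 0.62 for *Cd274*, -0.14 to 0.14 for *Icosl*, -0.12 to 0.043 for *Vsir* and -0.10 to 0.25 for *Lgals9*. In matIMs they were -0.067 to 0.32 for *Cd40*, -0.045 to 0.18 for *Cd80*, -0.13 to 0.22 for *Pdcd1lg2*, -0.26 to 0.27 for *Cd70*, -0.056 to 0.058 for *Cd48*, -0.24 to 0.045 for *Vsir* and -0.18 to 0.23 for *Lgals9*. From moMs to tnsIMs they were -0.11 to 0.15 for *Lgals9* in WT, -0.15 to 0.32 in Ezr-KOm and -0.030 to 0.29 for *Cd80* in Ezr-KOm, and from moMs to matIMs -0.036 to 0.10 for *Cd48* in Ezr-KOm.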
